A study of Mus musculus with 2 samples.

Results

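The 9 genes described here are those of the vascular endothelial growth factor (VEGF) system that were followed in single muscle nuclei: the ligands *Vegfa*, *Vegfb* and *Vegfc*, the receptors *Kdr*, *Flt1* and *Flt4*, the co-receptors *Nrp1* and *Nrp2*, and the semaphorin *Sema6d*. They were taken by symbol from the 32285 genes of the count matrices, and all 9 were found in both. They were chosen by gene family, and with their earlier measured levels by class and library in these nuclei in view, so every difference between the libraries given below is a description without a test. The nuclei came from the tibialis anterior (TA) muscle of male C57BL/6 mice aged 6 weeks. M-*Bcl6* KO mice carried Myf6-Cre, which is active in muscle fibres, and loxP sites around exons 7 to 9 of *Bcl6* on both alleles (Bcl6 fl/fl). M-*Bcl6* WT mice were littermates with Myf6-Cre and wild-type *Bcl6* alleles (Bcl6 wt/wt), so the recombinase was present in both groups. The right and left muscles of 2 mice were pooled for each genotype, and each pool gave 1 droplet library of sorted nuclei, so the spread between animals cannot be seen.

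VEGF-A is secreted by cells that need blood supply and acts on endothelial cells through KDR (VEGFR2), the main signalling receptor. FLT1 (VEGFR1) binds VEGF-A and VEGF-B tightly and in part works as a decoy. VEGF-C acts mainly through FLT4 (VEGFR3), the receptor of lymphatic vessels. Neuropilins have short tails and serve as co-receptors for VEGFs and for class 3 semaphorins. SEMA6D is a transmembrane semaphorin that binds plexin-A1, a receptor that can form complexes with KDR. Muscle fibres are a main source of VEGF-A in muscle, where capillaries lie denser around oxidative than around glycolytic fibres. Of the myosin heavy chain genes, *Myh4* marks the most glycolytic fibres (type 2B), *Myh1* type 2X, *Myh2* type 2A and *Myh7* slow type 1.

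The library labelled WT held 3798 barcodes with 11974138 unique molecular identifiers (UMIs, each 1 counted RNA molecule) and the library labelled KO 4096 barcodes with 12026013 UMIs, and 3674 and 3944 nuclei were kept. Marker genes gave 2414 and 3087 myonuclei, 223 and 130 endothelial-like, 159 and 117 pericyte- or smooth muscle-like, 481 and 327 nuclei like fibro-adipogenic progenitors (FAP), 52 and 51 tenocyte-like, 186 and 128 like muscle stem cells (MuSC) and 97 and 61 macrophage-like nuclei, with 62 and 43 in clusters left without a name. Neither the 9 genes nor the pathway genes named below were used to cluster. The 2 libraries shared 6 barcode sequences. The targeted gene went against its label: *Bcl6* stood in myonuclei at 168 CPM (1485 UMIs) in the library labelled WT and 502 CPM (4843 UMIs) in that labelled KO, where CPM are the UMIs of a gene scaled to 1000000 UMIs of the class in that library. A count over the whole gene does not separate the deleted exons from the rest, so it does not check the deletion, and the libraries are named by their labels throughout. Myonuclear *Myh1* was 2913 and 1815 CPM, *Myh4* 773 and 459 CPM, *Myh2* 510 and 735 CPM and *Myh7* 0.564 and 33.8 CPM in the libraries labelled WT and KO, in this order as in all pairs of values that follow.

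*Nrp1* and *Sema6d* were the members that differed most between the libraries in myonuclei, and *Vegfa* was the VEGF ligand with the highest level there. The RefSeq sequences just before the start of these 3 genes are therefore shown first (250 bases, GRCm38.p6, in the direction of the gene). *Nrp1* lies on the plus strand of chr8:128358604-128503363, *Sema6d* on the plus strand of chr2:124089969-124667770 and *Vegfa* on the minus strand of chr17:46016993-46032369 in the GENCODE M21 annotation of the same build. The windows are chr8:128358823-128359072, chr2:124089719-124089968 and chr17:46032378-46032627. For *Nrp1* the window lies in the first intron of 1 annotated transcript that starts further upstream. Capitals mark matches on either strand to ACGTG, the core bound by hypoxia-inducible factors, to AAGGTCA, a sequence that estrogen-related receptors bind, or to TTCNNNGAA, a palindrome that STAT5 and BCL6 can bind.
*Nrp1*: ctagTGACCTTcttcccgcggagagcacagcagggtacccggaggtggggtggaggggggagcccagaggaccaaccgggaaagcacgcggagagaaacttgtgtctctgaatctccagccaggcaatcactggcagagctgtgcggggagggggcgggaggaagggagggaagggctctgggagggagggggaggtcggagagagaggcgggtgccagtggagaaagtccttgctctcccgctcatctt
*Sema6d*: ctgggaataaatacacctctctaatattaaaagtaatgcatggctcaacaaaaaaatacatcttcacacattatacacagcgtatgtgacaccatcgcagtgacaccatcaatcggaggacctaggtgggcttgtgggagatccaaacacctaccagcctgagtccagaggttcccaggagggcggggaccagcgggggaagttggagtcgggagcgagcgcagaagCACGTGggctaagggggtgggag
*Vegfa*: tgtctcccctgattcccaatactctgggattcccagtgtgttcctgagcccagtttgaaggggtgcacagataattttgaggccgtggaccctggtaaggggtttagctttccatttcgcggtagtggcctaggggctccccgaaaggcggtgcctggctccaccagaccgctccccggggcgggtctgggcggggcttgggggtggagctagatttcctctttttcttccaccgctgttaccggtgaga
The *Nrp1* window held 1 match to AAGGTCA, on the opposite strand, with its first base 246 bases before the start. The *Sema6d* window held ACGTG on both strands in 1 run of 6 overlapping bases, 23 to 18 bases before the start. The *Vegfa* window and the windows of *Vegfb*, *Vegfc*, *Kdr*, *Flt1*, *Flt4* and *Nrp2* held none of the 3 motifs. Second RefSeq starts, inside the genes, gave 1 match to ACGTG for *Vegfa* and none for *Sema6d*. No window of a member held TTCNNNGAA. Of 32851 RefSeq windows of this length, 16.6% held ACGTG, 4.08% AAGGTCA and 7.02% TTCNNNGAA. These are matches of letters in a short window, and they say nothing of what binds there.

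RNA of the ligands *Vegfa* and *Vegfb* lay mostly in another class of nuclei than that of the receptors *Flt1* and *Kdr*. Of all *Vegfa* UMIs, 98.1% (95% exact binomial interval 97.8 to 98.4, 8145 of 8304) and 98.8% (98.6 to 99.0, 11445 of 11587) were myonuclear in the libraries labelled WT and KO. *Vegfb*, a ligand of FLT1 linked to fatty acid handling, had 89.2% (141 of 158) and 91.9% (194 of 211) of its UMIs there, which goes with the number of myonuclei as well as with its level in them. Of all *Flt1* UMIs, 97.1% (1554 of 1600) and 92.4% (1001 of 1083) were in endothelial-like nuclei, and of all *Kdr* UMIs 92.8% (154 of 166) and 91.1% (113 of 124). *Nrp1*, *Nrp2*, *Sema6d* and *Vegfc* were spread over several classes. All intervals here are at the 95% level and cover counting error only.

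**Figure D1:**
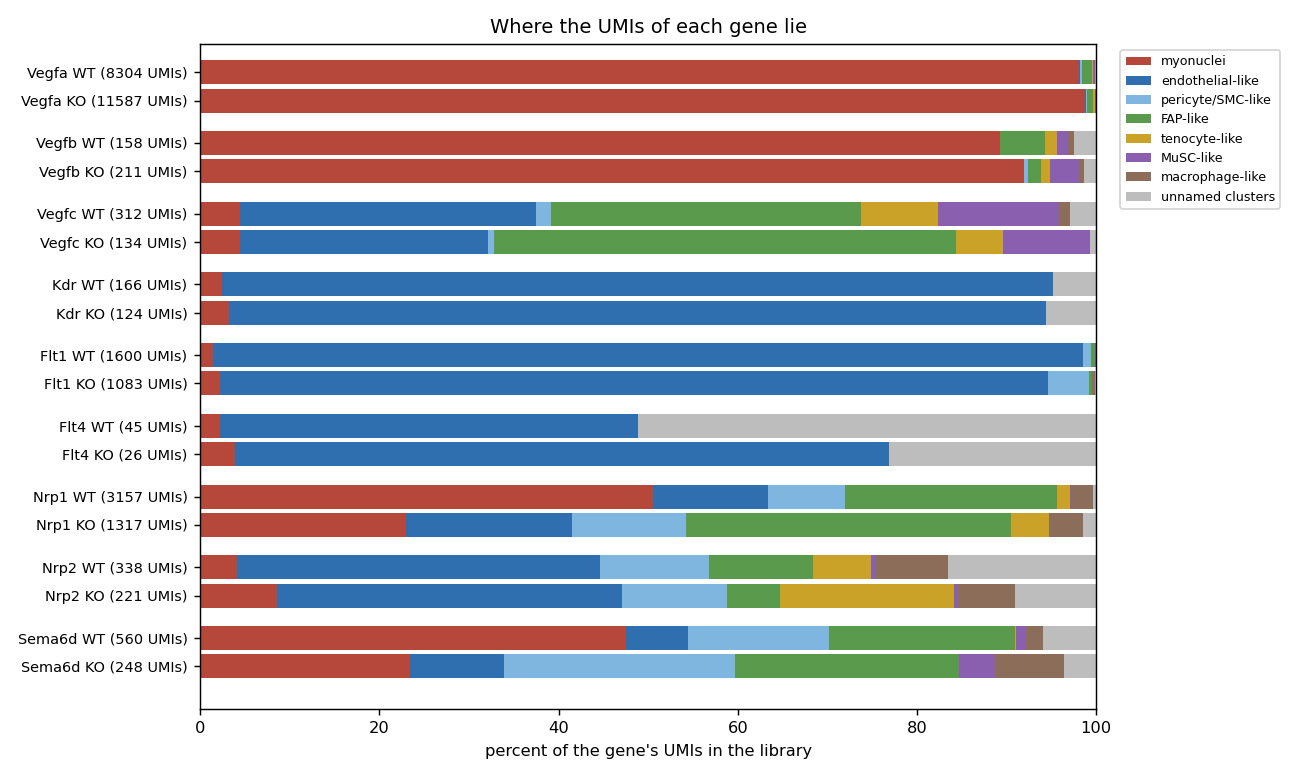
Each bar is 1 gene in 1 library and splits its UMIs (total in brackets) by class, in percent. *Vegfa* and *Vegfb* bars are mostly myonuclear and *Kdr* and *Flt1* bars mostly endothelial-like, while the myonuclear part of *Nrp1* goes from 50.5% in the library labelled WT to 23.0% in the other.

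The myonuclear level of *Vegfa* was 919 CPM (899 to 939) and 1185 CPM (1164 to 1207). In FAP-like nuclei it was 88.6 CPM (71.8 to 108, 96 UMIs) and 120 CPM (95.4 to 148, 84 UMIs). MuSC-like nuclei had 66.0 CPM (39.1 to 104, 18 UMIs) and 46.6 CPM (9 UMIs), and tenocyte-like nuclei 31.1 CPM (4 UMIs) and 122 CPM (71.3 to 196, 17 UMIs). No single class thus stood clearly second to the myonuclei in both libraries. A single tenocyte-like nucleus held 9 of the 17 UMIs, and without it the level there was 60.3 CPM. In endothelial-like nuclei *Vegfa* was 30.6 CPM (12 UMIs) and 48.4 CPM (13 UMIs). That was 3.33% and 4.08% of its myonuclear level, where the 10 myonuclear markers stood at 2.99% and 2.56% of theirs. In FAP-like nuclei it stood at 9.64% and 10.1%, and the markers at 1.69% and 3.53%. Tenocyte-like nuclei gave 3.38% and 10.3%, and the markers 8.11% and 6.99%. MuSC-like nuclei gave 7.18% and 3.93%, and the markers 11.4% and 9.43%. The part of muscle RNA in these levels was not tested. *Vegfb* stood at 15.9 CPM (13.4 to 18.8, 141 UMIs) and 20.1 CPM (17.4 to 23.1, 194 UMIs) in myonuclei. In endothelial-like nuclei it had 0 UMIs in both libraries, with intervals that reached up to 9.40 and 13.7 CPM. Its level was not particular to myonuclei. Tenocyte-like nuclei had 15.5 CPM (2 UMIs) and 14.4 CPM (2 UMIs), and MuSC-like nuclei 7.33 CPM (2 UMIs) and 36.2 CPM (14.6 to 74.7, 7 UMIs), with intervals that overlapped those of myonuclei.

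Among fibre types, *Vegfa* followed the main myosin gene of the nucleus. Nuclei were put in the set of the *Myh* gene with most UMIs. In the library labelled WT *Vegfa* was 378 CPM (354 to 402, 704 nuclei) in *Myh4*-main, 1256 CPM (1223 to 1289, 1161 nuclei) in *Myh1*-main and 1225 CPM (1153 to 1301, 234 nuclei) in *Myh2*-main nuclei. The same sets of the library labelled KO held 473 CPM (441 to 507, 611 nuclei), 1586 CPM (1547 to 1625, 1176 nuclei) and 1450 CPM (1392 to 1508, 482 nuclei). The order was thus *Myh4*-main lowest in both libraries, while *Myh1*-main and *Myh2*-main overlapped in the library labelled WT and *Myh1*-main was the higher in that labelled KO. The log2 ratio of *Myh2*-main over *Myh4*-main was 1.70 (1.57 to 1.83) and 1.62 (1.5 to 1.73). The median nucleus held 1 *Vegfa* UMI in the *Myh4*-main set of either library and 4 in the *Myh2*-main sets. With each nucleus thinned to 1000 UMIs, *Vegfa* was found in 28.5%, 65.9% and 72.3% of *Myh4*-, *Myh1*- and *Myh2*-main nuclei of the library labelled WT and in 31.9%, 72.3% and 71.0% of those of the other (without thinning 57.5%, 93.1% and 91.5%, and 59.1%, 91.0% and 92.3%).

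Between the libraries, *Vegfa* in myonuclei was higher in the library labelled KO by 0.37 on the log2 scale (0.33 to 0.41). The median log2 ratio over the 6988 genes with at least 200 UMIs was -0.15, so relative to it *Vegfa* was 0.51 higher. That is short of the 1.5-fold distance from the median (log2 0.585) used here to mark a gene, which 15.3% of all genes passed, 9.54% upwards and 5.71% downwards. The 3 main sets gave log2 ratios of 0.33 (*Myh4*-main), 0.34 (*Myh1*-main) and 0.24 (*Myh2*-main). Myonuclei with no *Myh* UMI stood apart: 402 CPM (360 to 448, 274 nuclei) and 808 CPM (768 to 849, 733 nuclei), a log2 ratio of 1.01 (0.84 to 1.18). Holding the mix of *Myh* sets at that of the library labelled WT gave 0.36, close to the 0.37 of all myonuclei. Within the 5 large myonuclear clusters the ratio ranged from -0.05 (-0.28 to 0.17) to 0.54 (0.49 to 0.60). *Vegfb* had a log2 ratio of 0.34 with an interval from 0.02 to 0.66. It was 0.21 (-0.16 to 0.57) in myonuclei without an endothelial or FAP marker UMI and 0.92 (0.27 to 1.61) with nuclei thinned to 1000 UMIs.

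**Figure D2:**
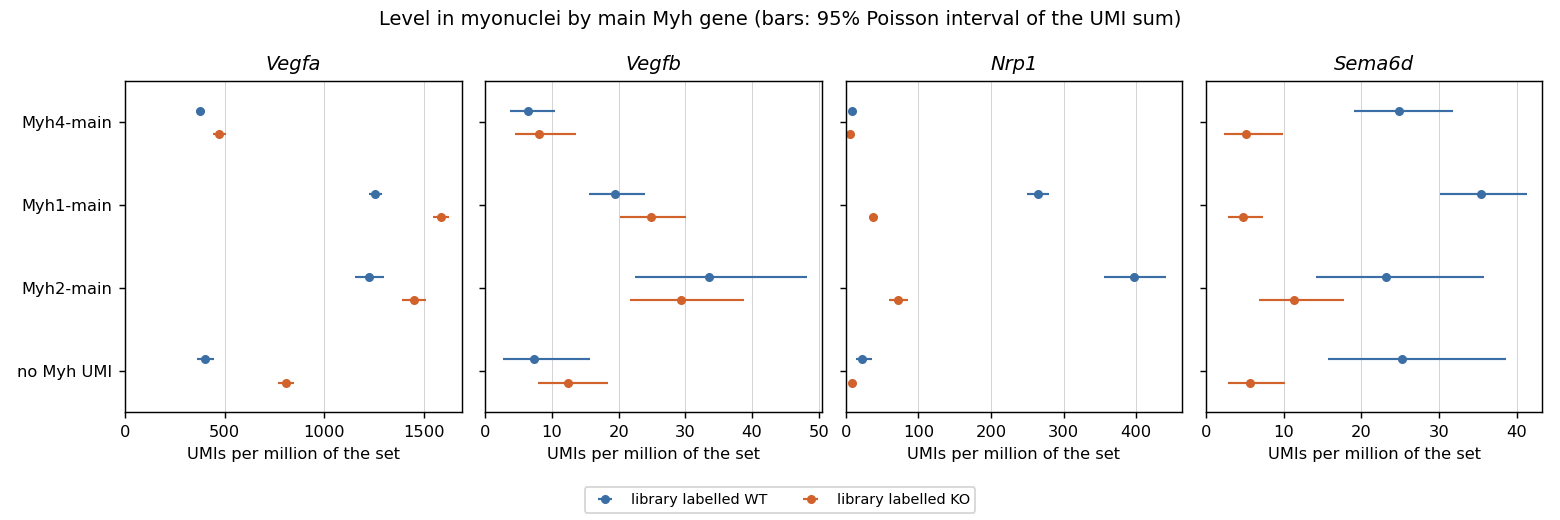
Points give the level in CPM of 4 genes in myonuclei by main *Myh* gene (rows) and library (colour), with 95% Poisson intervals. *Vegfa* is lowest in the *Myh4*-main sets of both libraries, and *Nrp1* in *Myh1*- and *Myh2*-main nuclei is far lower in the library labelled KO.

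*Nrp1* was the member with the widest difference. In myonuclei it was 180 CPM (171 to 189, 1595 UMIs) in the library labelled WT and 31.4 CPM (27.9 to 35.1, 303 UMIs) in that labelled KO. Their log2 ratio of -2.52 (-2.70 to -2.34), which is -2.37 with the median of all genes taken off, had rank 8 from the bottom of 6988 genes. Its UMIs lay in 576 of 2414 and 167 of 3087 myonuclei, and the fullest nucleus held 23 and 19. Thinned to 1000 UMIs, 10.5% (9.27 to 11.8) and 2.46% (1.93 to 3.07) of myonuclei held a UMI (without thinning 23.9% and 5.41%).

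The gene was a mark of *Myh1*- and *Myh2*-main nuclei. In the library labelled WT it was 8.82 CPM (22 UMIs) in *Myh4*-main, 264 CPM (1201 UMIs) in *Myh1*-main and 397 CPM (343 UMIs) in *Myh2*-main nuclei. Those of the library labelled KO held 5.78 CPM (10 UMIs), 37.9 CPM (153 UMIs) and 71.8 CPM (120 UMIs). The 3 levels did not overlap in their intervals within either library. The log2 ratio of *Myh2*-main over *Myh4*-main was 5.49 (4.87 to 6.19) in the former, rank 3 from the top of 2746 genes, where 18.2% of genes passed the 1.5-fold distance upwards. It was 3.64 (2.71 to 4.73) in the latter. Between libraries the log2 ratio was -2.80 (-3.06 to -2.56) in *Myh1*-main and -2.47 (-2.78 to -2.16) in *Myh2*-main nuclei. In *Myh4*-main nuclei it was -0.61 with an interval from -1.85 to 0.53, so a difference was not detectable there at this depth. Nuclei with no *Myh* UMI had 22.9 CPM (19 UMIs) and 8.74 CPM (17 UMIs).

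Outside muscle fibres *Nrp1* was closer between the libraries than in myonuclei. Endothelial-like nuclei held most, 1037 CPM (939 to 1143) and 904 CPM (794 to 1026), with a log2 ratio of -0.20 (-0.43 to 0.03). That ratio was -0.28 (-0.51 to -0.06) without doublet removal and -0.32 (-0.56 to -0.07) with at most 1% mitochondrial UMIs. FAP-like nuclei held 690 CPM (642 to 742) and 681 CPM (621 to 745), a log2 ratio of -0.02 (-0.19 to 0.15). Pericyte- or smooth muscle-like nuclei had 737 and 577 CPM, a log2 ratio of -0.35 (-0.64 to -0.07). Macrophage-like nuclei had 434 and 390 CPM and tenocyte-like nuclei 334 and 396 CPM, with intervals that overlapped between the libraries. MuSC-like nuclei had 5 UMIs and 1 UMI. In the library labelled WT myonuclei came at place 6 of the 7 classes, yet as the most numerous nuclei they held 50.5% of all *Nrp1* UMIs, and in the library labelled KO 23.0%. The 8 FAP markers stood in myonuclei at 0.339% and 0.296% of their level in FAP-like nuclei and the 12 endothelial markers at 0.255% and 0.275% of theirs. Left to myonuclei without a UMI of either marker list, the *Nrp1* log2 ratio was -2.62 (-2.83 to -2.41).

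*Sema6d* differed in the same direction in myonuclei. It was 30.01 CPM (26.5 to 33.8, 266 UMIs) in the library labelled WT and 6.01 CPM (4.56 to 7.77, 58 UMIs) in the other, a log2 ratio of -2.32 (-2.76 to -1.91), rank 13 from the bottom. Its level in the library labelled WT was 24.8 CPM in *Myh4*-main (62 UMIs), 35.5 CPM in *Myh1*-main (161 UMIs) and 23.1 CPM in *Myh2*-main nuclei (20 UMIs), and *Myh1*-main over *Myh4*-main gave a log2 ratio of 0.51 (0.08 to 0.96). The KO-labelled sets held 5.20 CPM (9 UMIs), 4.71 CPM (19 UMIs) and 11.4 CPM (19 UMIs). Log2 ratios were -2.26 (-3.45 to -1.24), -2.91 (-3.68 to -2.22) and -1.03 (-2.01 to -0.04). It was thus lower in all 3 sets, and differences between sets or from *Nrp1* were not tested.

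In other classes *Sema6d* was highest in pericyte- or smooth muscle-like nuclei, 240 CPM (193 to 296) and 220 CPM (169 to 281), a log2 ratio of -0.13 (-0.62 to 0.35). FAP-like nuclei held 107 and 88.3 CPM and endothelial-like nuclei 99.4 and 96.8 CPM, with intervals that overlapped. Macrophage-like nuclei held 62.8 CPM (11 UMIs in 6 nuclei) and 151 CPM (19 UMIs in 10 nuclei). A pair of non-coding genes on the opposite strand, 4930517E11Rik and 4930583P06Rik, lie within the long *Sema6d* locus, and whether the counting used strand is not given in the sources used here.

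Of the 9 members, 4 reached 200 UMIs in myonuclei of both libraries together, and 2 of these passed the 1.5-fold distance, both downwards. Of all genes 15.3% passed it, 5.71% downwards. The rule that named the genes knew this contrast, so nothing is read from that count. The other 5 had too few UMIs in myonuclei to be compared.

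**Figure D3:**
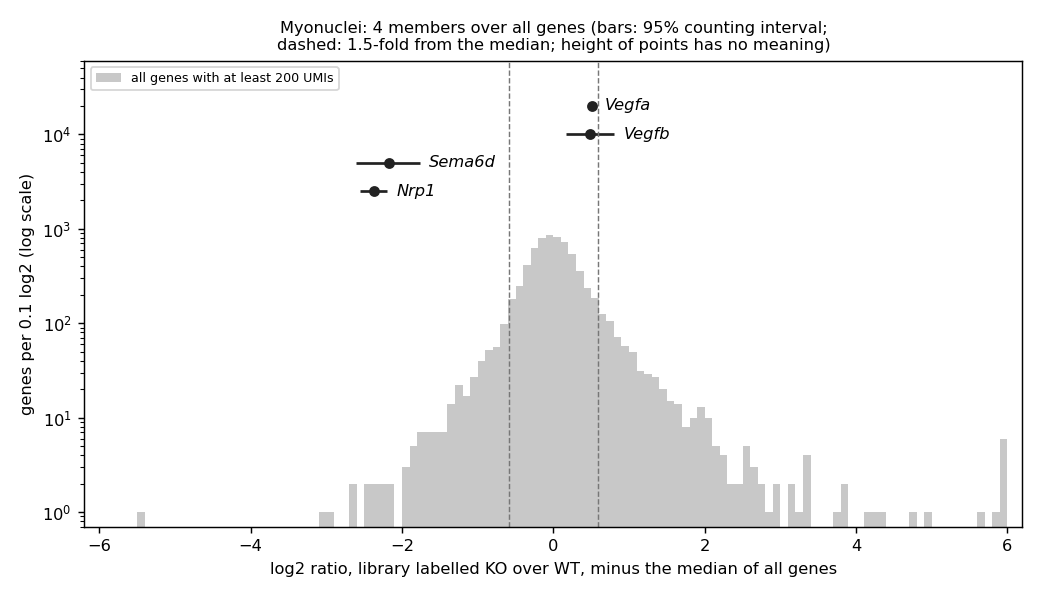
Grey bars count all 6988 genes by log2 ratio of the library labelled KO over the library labelled WT in myonuclei, relative to their median (log scale upwards; the end bins hold all genes beyond them). Points with 95% counting intervals mark 4 members: *Nrp1* at -2.37 and *Sema6d* at -2.17 lie in the lower tail, *Vegfb* at 0.48 and *Vegfa* at 0.51 just inside the dashed 1.5-fold line.

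The receptors *Flt1* and *Kdr* were endothelial and close between the libraries. *Flt1* was 3961 CPM (3766 to 4163) and 3726 CPM (3498 to 3964) in endothelial-like nuclei, a log2 ratio of -0.09 (-0.20 to 0.03). Without doublet removal that ratio was -0.12 (-0.24 to -0.01). In capillary-led nuclei, described under other observations, the *Flt1* levels lay further apart than in all endothelial-like nuclei, and those of *Kdr* did not. *Kdr* was 393 CPM (333 to 460) and 421 CPM (347 to 506), a log2 ratio of 0.10 (-0.26 to 0.46). Of 223 and 130 endothelial-like nuclei, 201 and 122 held *Flt1*, 79 and 55 *Kdr*, and 74 and 54 both. Of the same nuclei 143 and 86 held *Nrp1*, and 58 and 40 held all 3 genes. *Kdr* had 0 UMIs in pericyte- or smooth muscle-, FAP-, tenocyte-, MuSC- and macrophage-like nuclei of both libraries. Its intervals reached up to 3.40 CPM in the deepest of these (FAP-like, library labelled WT) and 29.4 CPM in the shallowest (macrophage-like, library labelled KO). In myonuclei it had 4 UMIs in each library. *Flt1* in myonuclei stood at 0.0655% and 0.0667% of its endothelial level, where the 12 endothelial markers stood at 0.255% and 0.275% of theirs, and the part of endothelial RNA in it was not tested.

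Summed over whole libraries, *Flt1* was 140 CPM (133 to 147) and 94.4 CPM (88.9 to 100), and *Kdr* 14.5 and 10.8 CPM. Endothelial-like nuclei made up 6.07% (5.32 to 6.89) and 3.30% (2.76 to 3.90) of kept nuclei. The whole-library difference thus went with fewer endothelial-like nuclei caught, though each held more UMIs (median 1400 and 1747.5), while the level within them was close. The share of FAP-like nuclei was lower too (13.1% and 8.29%), as were those of pericyte- or smooth muscle-like (4.33% and 2.97%), MuSC-like (5.06% and 3.25%) and macrophage-like nuclei (2.64% and 1.55%). Tenocyte-like nuclei were close (1.42% and 1.29%). With 1 library a genotype, sorting and capture cannot be told apart from the muscle's own makeup.

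In pericyte- or smooth muscle-like nuclei *Flt1* had 13 UMIs (35.5 CPM) and 49 UMIs (168 CPM), a log2 ratio of 2.25 (1.34 to 3.25). A single nucleus held 31 of the 49, and without it the level was 63.7 CPM. Endothelial markers in this class moved with it: 7 of 12 detected at 150 CPM in all, and 12 of 12 at 406 CPM. The part of endothelial RNA in this difference was not tested.

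**Figure D4:**
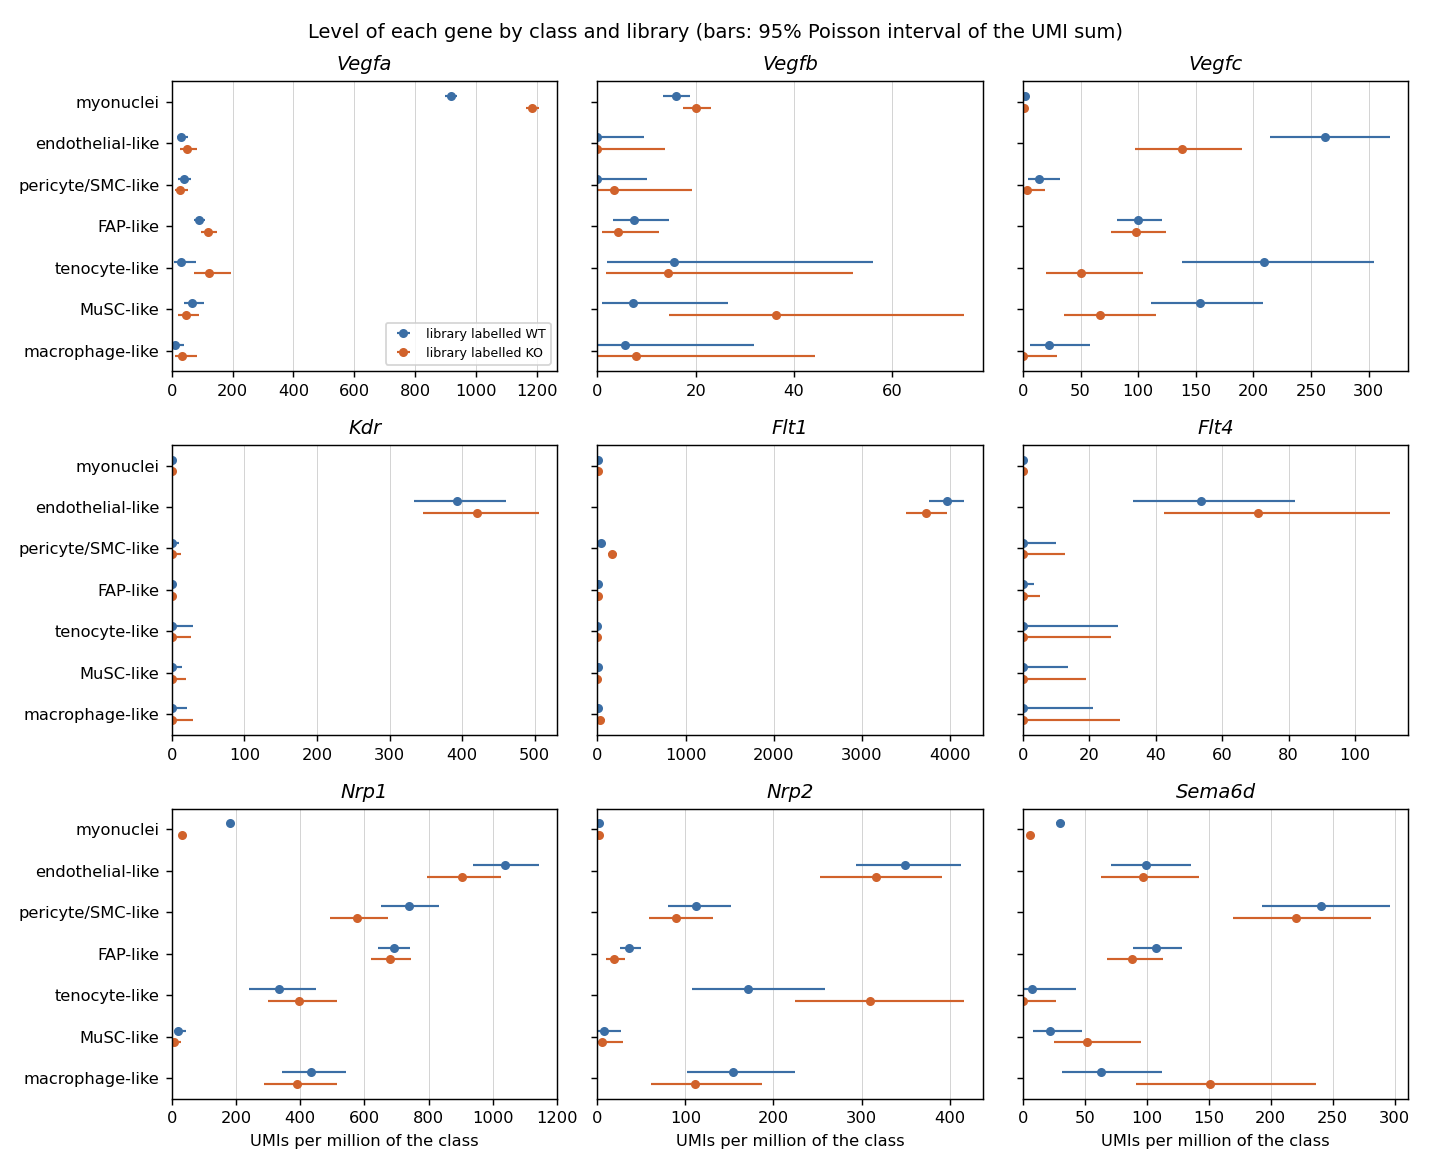
Each panel gives 1 gene's level in CPM (own scale) in 7 classes and 2 libraries, with 95% Poisson intervals. *Nrp1* and *Sema6d* differ between libraries in myonuclei while their intervals overlap in endothelial- and FAP-like nuclei. *Vegfc* is lower in the library labelled KO in endothelial- and tenocyte-like nuclei, and in MuSC-like nuclei with intervals that overlap.

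*Vegfc* came from the stroma, vessels and stem cells. In the library labelled WT endothelial-like nuclei had 263 CPM (214 to 318), tenocyte-like 210 CPM (138 to 305), MuSC-like 154 CPM (111 to 208) and FAP-like nuclei 99.7 CPM (81.8 to 120), and each neighbour in this order overlapped the next. Myonuclei had 1.58 CPM (14 UMIs). It was 138 CPM (97.0 to 190) in endothelial-like nuclei of the library labelled KO (103 against 37 UMIs), a log2 ratio of -0.93 (-1.51 to -0.38). These UMIs lay in 38 of 223 and 19 of 130 nuclei. In the nuclei led by capillary markers, described under other observations, the levels of the libraries were closer. Tenocyte-like nuclei had 50.4 CPM (27 against 7 UMIs, log2 ratio -2.06, -3.50 to -0.82) and MuSC-like nuclei 67.3 CPM (42 against 13 UMIs, log2 ratio -1.19, -2.22 to -0.27). With nuclei assigned by their own markers the tenocyte-like ratio was -1.44 (-3.66 to 0.53). Tenocyte-like nuclei also carried FAP markers at 31.6% and 29.5% and MuSC markers at 30.1% and 43.0% of the level in those classes. The part of such RNA in the *Vegfc* difference was not tested. FAP-like nuclei had 98.3 CPM, a log2 ratio of -0.02 (-0.48 to 0.43). FAP-like nuclei therefore held 34.6% and 51.5% of its UMIs.

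*Flt4*, the receptor of VEGF-C, had few UMIs. *Nrp2*, its co-receptor, had more, with 137 and 85 in endothelial-like nuclei. Endothelial-like nuclei had 21 and 19 *Flt4* UMIs, or 53.5 CPM (33.1 to 81.8) and 70.7 CPM (42.6 to 110). The other sizeable source was an unnamed cluster led by *Slit2* and *Reln*. The unnamed clusters together held 51.1% (23 of 45) and 23.1% (6 of 26) of *Flt4* UMIs, against 46.7% and 73.1% in endothelial-like nuclei. At clustering resolution 1.0 a lymphatic endothelial-like cluster separated, with 11 and 6 of the kept nuclei. *Flt4* there was 1022 CPM (648 to 1533, 23 UMIs) and 405 CPM (149 to 882, 6 UMIs), *Nrp2* 1066 CPM (24 UMIs) and 270 CPM (4 UMIs), and *Kdr* 355 CPM (8 UMIs) and 473 CPM (7 UMIs), while *Flt1*, *Nrp1* and *Vegfc* had 0 UMIs. The intervals of *Flt4* overlapped between the libraries. *Nrp2* in endothelial-like nuclei was 349 CPM (293 to 413) and 316 CPM (253 to 391), a log2 ratio of -0.14 (-0.55 to 0.26). In tenocyte-like nuclei it was 171 CPM (22 UMIs) and 309 CPM (43 UMIs), and in FAP-like nuclei 36.0 CPM (39 UMIs) and 18.5 CPM (13 UMIs).

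Over the 6 non-muscle classes, 27 pairs of member and class reached 20 UMIs, and 9 passed the 1.5-fold distance. The count by class was 2 of 8 in endothelial-like nuclei, where 27.4% of all genes passed, 1 of 5 in FAP-like (23.3%), 1 of 5 in pericyte- or smooth muscle-like (25.1%), 3 of 4 in tenocyte-like (31.5%), 1 of 2 in MuSC-like (28.3%) and 1 of 3 in macrophage-like nuclei (30.7%). Against these backgrounds, counts this small are not read as a result about the members.

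Of 51 other genes of the pathway in 6 lists, 22 reached 200 UMIs in myonuclei, of which 4 passed the 1.5-fold distance upwards and 0 downwards, against 9.54% and 5.71% of all genes. The median of the 22 was 0.13 above that of all genes. In the list of oxygen sensing and VEGF induction 2 of 11 passed: *Ppargc1a*, a coactivator of mitochondrial genes that can raise *Vegfa* transcription, at 676 CPM (5990 UMIs) and 2179 CPM (21037 UMIs), a log2 ratio of 1.69 (1.65 to 1.73), and *Zfp36l1*, which binds and destabilises AU-rich mRNAs, at 10.9 and 18.9 CPM (0.78, 0.42 to 1.16). *Angptl4*, an angiopoietin-like inhibitor of lipoprotein lipase, was 7.78 and 20.2 CPM (1.38, 0.97 to 1.79). *Plxna2*, a plexin that pairs with neuropilins in semaphorin signalling, was 47.2 and 65.5 CPM (0.47, 0.29 to 0.65). The 9 others of the oxygen list that were compared, among them *Hif1a*, the hypoxia-inducible factor subunit, stayed within the 1.5-fold distance. Nearest to it, relative to the median of all genes, were *Egln3* (-0.58), *Zfp36* (0.57) and *Epas1* (-0.56).

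Part of the same list set *Myh2*-main apart from *Myh4*-main nuclei. In the library labelled WT 5 of the 6 genes compared passed the 1.5-fold distance upwards and 0 downwards, where 18.2% and 18.4% of all genes did. In the other library 4 of 6 and 0 did, against 20.5% and 15.1%. *Ppargc1a* had log2 ratios of 2.36 (2.19 to 2.54) and 2.53 (2.40 to 2.66), *Ppargc1b* 2.61 and 1.89, *Esrra*, an estrogen-related receptor, 2.20 and 1.5, and its relative *Esrrg* 2.10 and 3.24. *Fgf1*, a growth factor of the angiogenic list, was higher too, at 2.75 and 2.62. *Vegfd*, another ligand of FLT4, went the other way, from 148 CPM (369 UMIs) in *Myh4*-main to 44.0 CPM (38 UMIs) in *Myh2*-main nuclei of the library labelled WT and from 128 CPM (222 UMIs) to 83.2 CPM (139 UMIs) in those of the other, with log2 ratios of -1.75 (-2.27 to -1.27) and -0.63 (-0.94 to -0.31). *Sema3c*, a neuropilin ligand, had log2 ratios of -0.90 and -1.20. Nuclei were sorted into sets by single *Myh* genes, so these are differences between fibre types of 1 library each.

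In endothelial-like nuclei 9 of the 14 genes of the endothelial response to VEGF reached 20 UMIs, with 1 past the 1.5-fold distance upwards and 1 downwards, against 11.7% and 15.6% of all genes. The gene past it downwards was *Notch4*, an endothelial Notch receptor, at 181 CPM (71 UMIs) and 108 CPM (29 UMIs), a log2 ratio of -0.75 (-1.42 to -0.10). The gene past it upwards was *Nrarp*, a Notch target that damps Notch signalling, at 43.3 CPM (17 UMIs) and 74.4 CPM (20 UMIs), a log2 ratio of 0.78 whose interval from -0.23 to 1.80 includes 0. Of the list of oxygen sensing and VEGF induction, 7 of 14 genes were compared in these nuclei, with 1 past the distance upwards and 1 downwards. *Epas1*, the hypoxia-inducible factor of endothelium, was the one upwards, at 596 CPM (234 UMIs) and 927 CPM (249 UMIs), a log2 ratio of 0.64 (0.37 to 0.90). In myonuclei *Epas1* went the other way, with 586 and 392 UMIs and a log2 ratio of -0.70 (-0.89 to -0.52). The gene past the distance downwards was *Zfp36*, with 29 and 12 UMIs. Its log2 ratio was -0.73, with an interval from -1.83 to 0.29.

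The genes nearest in pattern to each member were found by the correlation of log2(CPM + 10) over 20 points (10 sets of nuclei in each library) among 8650 genes. Nearest to *Vegfa* were 4930432B10Rik, *Amot* and *Itgb6* (r from 0.96 to 0.97), to *Flt1* *Kank3*, *Fabp4* and *Mcf2l* (0.98 to 0.99), and to *Kdr* *Dipk2b*, *Abcb1a* and *Arhgef15* (0.99 to 1.00). *Nrp1* and *Sema6d* had no near match: *Agfg2*, *Eif2ak3* and *Ldlrad4* reached 0.84 to 0.86, and *Parp9*, *Ntan1* and *Slbp* 0.88 to 0.89. The points of a library share its depth and preparation, so these values are a description.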

How the data were processed

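Nuclei of TA muscle were measured by single-nucleus RNA sequencing in 2 libraries, 1 for each genotype. Per the labels and methods, the authors pooled both TA muscles of 2 mice per group, sorted nuclei on 7-AAD and loaded them on a 10x Genomics chip. The labels name a Multiome chip with 5000 nuclei targeted and the methods a 3′ gene expression kit. The deposited matrices hold raw UMI counts per gene and barcode from Cell Ranger 7.0.0 on mm10 (GRCm38), per the submitters' processing notes, which also name Seurat 5.0.3. Whether intronic or strand-specific counting was used is not given in the sources used here. Counts from 3′ libraries do not separate splice forms, such as soluble FLT1.

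Barcodes with 200 to 5000 genes and at most 5% mitochondrial UMIs were kept, which removed 9 and 18 barcodes in the libraries labelled WT and KO. Scrublet (in scanpy 1.11.5) scores then removed the top 115 and 134 barcodes, at 0.8% per 1000 barcodes. Nuclei were clustered in Seurat 5.3.0 (R 4.3.3; 2000 variable genes, 30 components, RPCA integration, resolution 0.5), without the members, the pathway lists and 403 genes that differed 2-fold or more between libraries in myonuclei. A cluster was called myonuclear when 10 markers summed to 40000 CPM, and otherwise took the class leading in its markers. Members and lists were chosen with earlier results of these data known, and the cluster names' cut-offs were set after the clusters were seen.

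UMIs were summed over the nuclei of a class in a library and divided by all UMIs of that class (CPM). Nuclei of 1 library are not replicates, so no p-value was computed. Intervals at 95% are exact Poisson for sums, Clopper-Pearson for shares and conditional binomial for ratios (scipy 1.17.1). They cover counting error only, and for 0 UMIs the upper end of the Poisson interval is given. Genes with 200 UMIs in myonuclei or 20 in another class were compared, and 1.5-fold from the median of these genes marks a difference. The ratio script was tested on simulated data. Median UMIs per kept nucleus were 2555 and 2478.5. Named genes are all members, *Bcl6*, the 4 *Myh* genes and the 3 genes nearest in pattern to each of *Vegfa*, *Kdr*, *Flt1*, *Nrp1* and *Sema6d*. In each pathway list up to 4 genes past that fold were named, with 200 UMIs in myonuclei (50 in endothelial-like nuclei for the endothelial response). *Hif1a*, *Arnt*, *Epas1*, *Egln3*, *Zfp36* and *Nrarp* were named after their values were seen. Alternatives changed filters, clustering, scaling (TMM of edgeR 4.0.16, median of ratios), weighting, thinning and the *Myh* rule. Promoter windows come from RefSeq tables for GRCm38.p6 (all 9 members matched) and gene positions from GENCODE M21. No protein sequences were used here.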

Additional observations from a re-analysis of the deposited data

Results flagged for a closer look

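Among the members and *Bcl6*, the same contrast pointed in opposite directions in different nuclei for 3 genes. Their counting intervals left out 0 as first computed. With 1 library a genotype the difference between those nuclei was not tested. *Nrp2* was higher in the library labelled KO in tenocyte-like nuclei (log2 ratio 0.86, 0.08 to 1.67) and lower in FAP-like nuclei (-0.96, -1.99 to -0.02). The FAP-like interval reached 0 in 5 of the alternatives, with TMM, median of ratios, no doublet removal, a minimum of 500 genes and resolution 1.0 (upper ends from 0.06 to 0.19). The tenocyte-like ratio was 0.09 with nuclei weighted equally, and its interval ran from -0.74 to 1.95 with nuclei assigned by their own markers. *Sema6d* was lower in myonuclei (-2.32) and higher in macrophage-like nuclei (1.27, 0.12 to 2.48), where it rested on 11 and 19 UMIs. *Bcl6*, the targeted gene, was higher in *Myh2*-main than in *Myh4*-main myonuclei of the library labelled WT (0.50) and lower in those of the library labelled KO (-1.25).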

How the results depend on the processing

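No paired analysis was possible because each genotype is 1 library, and for the same reason no replicate could be left out. The direction of the *Nrp1* and *Sema6d* ratios in myonuclei held under every alternative run, with a range from -2.62 to -1.27 and from -2.32 to -1.18 on the log2 scale. Over all nuclei in place of myonuclei they were -1.27 and -1.18, since other classes then count too, and *Vegfa* was 0.48. Scaling moved *Vegfa* to 0.51 (TMM) and 0.51 (median of ratios), and the myonuclear shift of TMM was -0.15. Thinned to 1000 UMIs, *Nrp1* was -2.12 and *Vegfb* 0.92; the cause was not tested. *Vegfa* over *Myh* sets in the library labelled KO was 1.74 with at least 3 *Myh* UMIs and 80% from 1 gene, and 1.78 without nuclei holding an endothelial or FAP marker UMI. Without doublet removal the myonuclear share of *Vegfa* was 96.2% and 97.3% (libraries labelled WT and KO), that of *Nrp1* 48.7% in the library labelled WT, and the endothelial share of *Flt1* 95.2% and 90.6%. With nuclei assigned by their own marker UMIs the *Flt1* share was 95.8% and 90.0%, and in the library labelled KO the *Vegfa* share was 99.1% and the *Nrp1* share 26.1%. Without integration the *Kdr* share was 97.6% and 96.8%. Without thinning, myonuclei with a UMI were 77.5% and 75.8% for *Vegfa*, so their order turned, 23.9% and 5.41% for *Nrp1* and 9.36% and 1.75% for *Sema6d*. *Flt1* in pericyte- or smooth muscle-like nuclei had a log2 ratio of 0.98 with each nucleus weighted equally, and *Nrp2* in tenocyte-like nuclei one of 0.09. The remaining ratios stayed within their counting intervals, *Vegfc* in endothelial-like nuclei between -1.03 and -0.86. No alternative split the endothelial-like nuclei by capillary, arterial and venous markers. Without doublet removal the tenocyte-like cluster got no name, so it has no value there. Depth limits the rarer genes most: *Flt4*, *Kdr* and *Nrp2* outside endothelial-like nuclei rest on few UMIs.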

Other observations

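Within endothelial-like nuclei, short lists of capillary, arterial and venous markers put most nuclei with the capillaries. In the library labelled WT 200 nuclei had most UMIs from the capillary list, 8 from the arterial and 7 from the venous list, and in the library labelled KO 121, 3 and 3. In the capillary-led nuclei *Flt1* was 4479 and 3861 CPM, *Kdr* 456 and 437 CPM, *Nrp1* 1174 and 942 CPM and *Vegfc* 180 and 130 CPM in the libraries labelled WT and KO. The 8 arterial-led nuclei of the library labelled WT held 17 *Vegfc* UMIs (698 CPM), 15 *Flt1* UMIs, 2 *Nrp1* UMIs and no *Kdr* UMI, and the 7 venous-led nuclei 6 *Vegfc*, 28 *Flt1* and 8 *Nrp1* UMIs and no *Kdr* UMI. These nuclei are too few to compare the libraries. A further 8 and 3 endothelial-like nuclei had no leading list. The *Vegfc* levels of the libraries were closer in capillary-led than in all endothelial-like nuclei. The difference over all of them thus rests in part on the few nuclei outside the capillary-led set.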
